A study of Mus musculus with 2 samples.

Results

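Arterial endothelial cells, the cells that line the kidney's arteries and arterioles, were described in 2 single-cell RNA libraries of injured mouse kidney. A barcode was kept if it held 500 or more unique molecular identifiers (UMIs, each standing for 1 captured transcript) over 200 or more genes, with mitochondrial UMIs making up 50% or less. It counted as endothelial with at least 3 UMIs of Cdh5, Pecam1, Egfl7 and Emcn together and none of Ptprc or Pdgfrb. An endothelial cell counted as arterial with at least 1 UMI of Gkn3, Stmn2 or Col8a1, fewer than 2 UMIs of Ehd3, and no Slc14a1 unless Gkn3 was present. This gave 225 arterial cells (92 control, 133 haplodeficient) of 1412 endothelial cells and 19478 retained cells. Because measured values chose the cells, their levels of those genes are a description and support nothing.

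The control library came from Cre- mice and the haplodeficient library from mice labelled Cdh5-CreERT2; Phd3f/+, in which a tamoxifen-activated recombinase driven by the endothelial Cdh5 promoter can delete 1 floxed copy of Phd3. Phd3 is the prolyl hydroxylase that the files list as Egln3. Kidneys of both groups were injured by clamping a renal artery on 1 side and were taken on day 14, and both groups received 4 tamoxifen injections. There was 1 library per group, both in batch 1, so no difference between the groups has a replicate check, and genotype and library cannot be told apart. The number of animals per library, their age and sex, and whether Cre- mice carried the floxed allele are not given in the sources used here.

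Arterial endothelium carries blood at the highest pressure and shear in the vascular tree. It lays down elastic fibres with the muscle cells around it, couples to them through connexin channels, and keeps its identity through Notch ligands and SOX17. It sets vascular tone by releasing nitric oxide and endothelin, and shear stress induces its transcription factors KLF2 and KLF4. In the kidney it feeds the glomerular capillaries through the afferent arterioles, where renin is released by neighbouring muscle-like cells. Prolyl hydroxylases mark the HIF transcription factors for destruction when oxygen is present.

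Gkn3 (ENSMUSG00000030048, chromosome 6, 87383256 to 87388935, minus strand, GRCm38) encodes a secreted gastrokine and marks arterial endothelium of several organs. Stmn2 (ENSMUSG00000027500, chromosome 3, 8509360 to 8561606, plus strand) encodes a microtubule regulator, and Col8a1 (ENSMUSG00000068196, chromosome 16, 57624258 to 57754737, minus strand) a short-chain collagen of vessel walls. Mgp (ENSMUSG00000030218, chromosome 6, 136872435 to 136875823, minus strand), an inhibitor of vascular calcification, is an arterial marker that the selection did not use. The promoter of Gkn3 is shown as that of a selection gene, and those of the Notch target Hey2 and the tyrosine kinase Bmx as examples picked because they hold the RBPJ core, which most windows of arterial genes did not. Each is the 250 bases before the RefSeq start (GRCm38.p6), read 5′ to 3′ on the gene's strand, with the core letters bound by the Notch effector RBPJ (TGGGAA, either strand) in capitals. The SOX core ATTGTT, also on either strand, was searched in the same way.
Gkn3, chr6:87388936-87389185, minus strand: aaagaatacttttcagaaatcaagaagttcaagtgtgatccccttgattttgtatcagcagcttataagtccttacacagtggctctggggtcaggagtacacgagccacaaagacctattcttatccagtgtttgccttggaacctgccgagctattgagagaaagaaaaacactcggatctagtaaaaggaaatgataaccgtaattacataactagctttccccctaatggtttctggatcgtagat
Hey2, chr10:30842784-30843033, minus strand: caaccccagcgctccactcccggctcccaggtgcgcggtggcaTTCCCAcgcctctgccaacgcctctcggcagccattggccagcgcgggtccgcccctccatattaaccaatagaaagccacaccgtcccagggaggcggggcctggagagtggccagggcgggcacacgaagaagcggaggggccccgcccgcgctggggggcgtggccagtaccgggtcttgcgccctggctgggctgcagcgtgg
Bmx, chrX:164258194-164258443, minus strand: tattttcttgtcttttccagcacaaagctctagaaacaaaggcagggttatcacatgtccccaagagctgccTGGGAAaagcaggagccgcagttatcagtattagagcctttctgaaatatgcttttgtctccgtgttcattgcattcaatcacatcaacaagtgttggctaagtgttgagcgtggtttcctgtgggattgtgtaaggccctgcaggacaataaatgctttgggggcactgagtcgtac

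The RBPJ core was found once in the Hey2 window and once in the Bmx window, and neither core was found in the Gkn3 window. Of 35 arterial identity and selection genes, 28 matched a RefSeq promoter, with 38 windows. The RBPJ core was in 6 of these windows (15.8%) and in 21.6% of all 32851 windows of that length. The SOX core was in 0 of the 38 and in 9.42% of all windows. These are matches of letters in short windows and say nothing about binding.

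The libraries held 134190236 (control) and 114668145 (haplodeficient) UMIs. Median UMIs per arterial cell were 10804 (control) and 7674 (haplodeficient), against 7420 and 4500 in the other endothelial cells. Thinned to 1000 UMIs each, arterial cells showed medians of 703.5 and 692 genes. Their median mitochondrial share was 4.73% and 2.66%. Likely doublets, the cells with the highest Scrublet scores, made up 20 of the 92 and 17 of the 133. Between the libraries 28 barcodes of retained cells were shared, and none of them was shared between arterial cells.

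Most arterial cells entered through Stmn2. A Stmn2 UMI was present in 81 of 92 control cells and 121 of 133 haplodeficient cells, Col8a1 in 40 and 38, and Gkn3 in 18 and 22. Stmn2 was the sole selection gene in 42 and 83 cells, Col8a1 in 10 and 10, and all 3 genes were present in 8 and 9. The cells with Col8a1 alone held 198846 of 1167014 arterial UMIs in the control and 190410 of 1499585 in the haplodeficient library. Most of them in the control, and some in the haplodeficient library, had no Mgp UMI. The deepest of them in the control had 44442 UMIs, with 7 of Col8a1, 0 of Mgp and 2.97% from tubule markers. No arterial cell carried Slc14a1. In UMIs per 1000000 (CPM), from counts summed over the arterial cells, Stmn2 stood at 401 and 522, Col8a1 at 75.4 and 68.7, and Gkn3 at 62.6 and 84.7.

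The boundary of the selection was soft. Cells with a single selection UMI numbered 21 and 35, and their Mgp level was 1126 and 784 CPM, against 2533 and 2861 CPM in cells with 2 or more. Cells with a selection gene but 2 or more Ehd3 UMIs, left out as glomerular, numbered 13 and 16 and had Mgp at 1004 and 236 CPM. Those left out for Slc14a1, a urea transporter of the descending vasa recta, numbered 4 and 3 with Mgp at 90.1 and 29.7 CPM. Among endothelial cells with no selection gene, Ehd3 below 2 and no Slc14a1 (303 and 568), Mgp was 112 and 89.8 CPM. Each of these groups had less Mgp than the members, although in the control the cells left out for Ehd3 were close to the single-UMI members.

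The independent marker Mgp gave 2675 UMIs in control and 3466 in haplodeficient arterial cells. Its level was 2292 CPM (95% Poisson interval 2206 to 2381) against 141 (132 to 151) in other control endothelial cells, and 2311 (2235 to 2390) against 159 (149 to 168) in the haplodeficient library. These are ratios of 16.2 and 14.6. Intervals given here cover counting error only. Mgp was thus high in the summed counts of the selected cells of each library although the selection did not read it. Not each selected cell carried it. An Mgp UMI was found in 9 of 21 control and 18 of 35 haplodeficient cells with a single selection UMI. With 2 or more selection UMIs it was found in 59 of 71 and 78 of 98 cells. Of 6 venous genes 3 were eligible and 0 were called in either direction. Ackr1 gave 0 UMIs in arterial cells of both libraries, but Nr2f2 gave 108 and 141 UMIs, Gas6 125 and 144, and Vwf 118 and 107. Lymphatic Ccl21a and Mmrn1 gave 43 and 19 UMIs, all in 1 control cell, and 0 UMIs in the haplodeficient library.

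**Figure D1:**
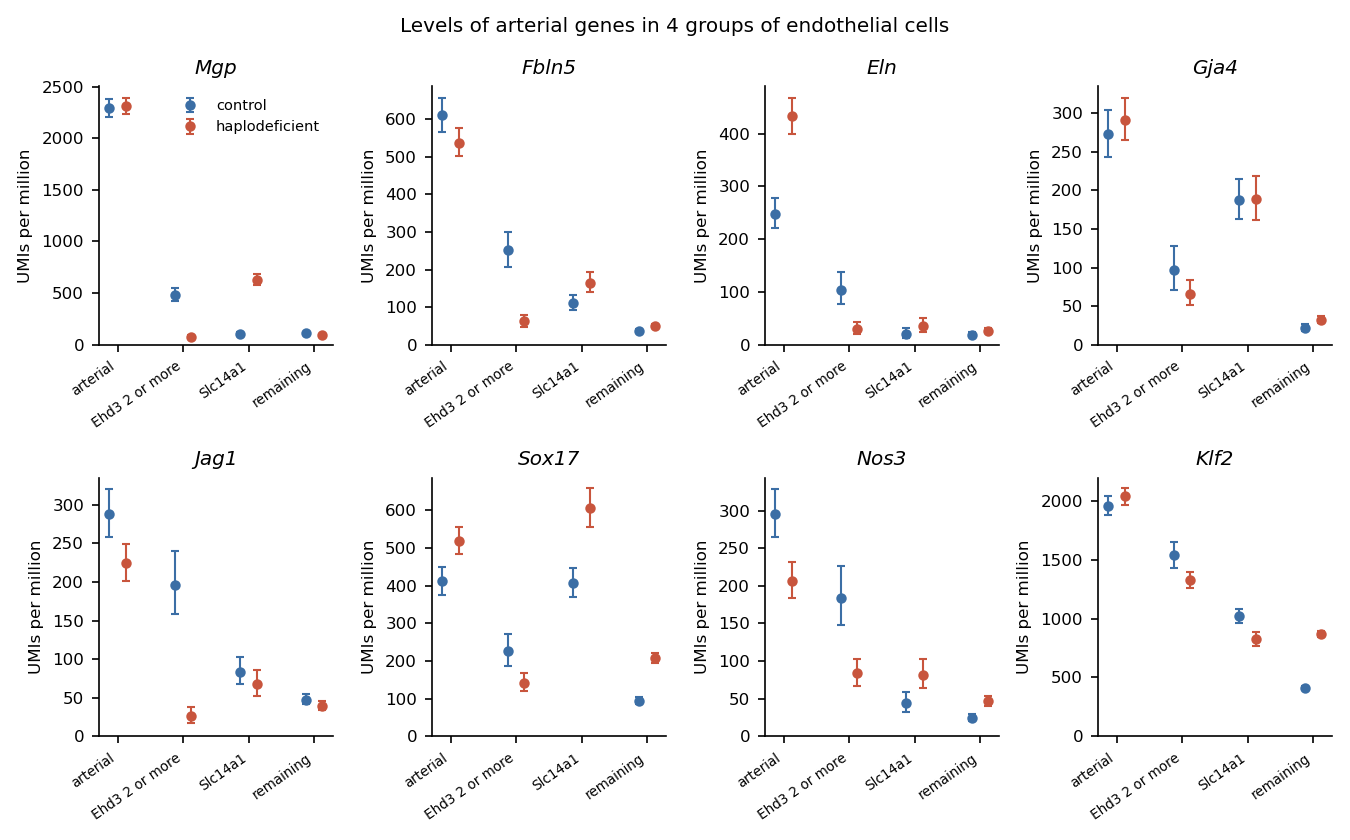
Level (CPM, y axis from 0) of 8 arterial genes in arterial cells, in cells with at least 2 Ehd3 UMIs, in cells with Slc14a1 and in the remaining endothelial cells (x axis), by library, with 95% Poisson intervals. Mgp stood at 2292 and 2311 in arterial cells and between 79.2 and 629 in the other groups, whereas Sox17 was at 407 and 606 in Slc14a1 cells beside 412 and 519 in arterial cells.

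A gene was compared between arterial and other endothelial cells when its mean was at least 50 CPM and its UMIs numbered at least 30. It was called higher or lower when log2 of the CPM ratio, after adding 5 CPM to each, passed 1 (2-fold) in both libraries with Poisson intervals apart. Of 3925 genes 101 were called higher (2.57%) and 39 lower (0.994%). Because the same cells were chosen by their RNA, nothing is read from these shares. Without the likely doublets and the cells in which markers of other cell types exceeded 1% of UMIs, 152 and 180 genes were called, and these included 99 of the 101 and 38 of the 39.

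Behind Ren1, described below, Mgp and Pde3a, genes of the arterial wall's matrix ranked high among those called. Fbln2 (fibulin 2) was at 366 CPM in control and 369 CPM in haplodeficient arterial cells, against 31.0 and 35.5 CPM in other endothelial cells. Fbln5, which assembles elastic fibres, was at 611 and 538 CPM against 68.4 and 66.6. Eln, elastin itself, was at 248.5 and 433 CPM against 26.3 and 28.5, with 60 and 91 arterial cells carrying a UMI. Ltbp4, which tethers latent TGF-beta to microfibrils, was at 437 and 407 CPM against 48.2 and 53.7. Of 18 eligible genes of elastic and basement membrane matrix, 9 were called higher and 0 lower, among them Fbn1 (4.49-fold and 3.41-fold), Fn1 (4.61-fold and 12.3-fold), Bgn and Htra1. The basement membrane collagen Col4a1 was lower than in other endothelial cells, at 232 against 325 CPM and 435 against 622 CPM, short of 2-fold.

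The arterial identity list held 32 genes that were chosen with these data known. Of its 25 eligible genes 20 were called higher and 1, Clu, lower. The list's median log2 ratio was 1.90 in control and 1.95 in haplodeficient cells, beside -0.03 and -0.05 over all eligible genes. Gja4 (connexin 37), a gap junction channel of arterial endothelium, was at 272 and 291 CPM against 60.5 and 57.8. Gja5 (connexin 40) was lower in level, at 47.1 and 66.7 CPM against 22.1 and 24.7. With 5 CPM added to each level it passed 2-fold in the haplodeficient library, not in the control. Sox17 was at 412 and 519 CPM against 166 and 250. Cells with Slc14a1 had Sox17 at 407 and 606 CPM, so that gene did not set arterial cells apart from them.

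Of the Notch genes, 8 were eligible and 3 called higher. The ligand Jag1 was at 288 and 224 CPM against 67.2 and 41.2, and Jag2 at 146 and 128 CPM against 27.9 and 34.5. The arterial ephrin Efnb2 was at 219 and 179 CPM against 91.9 and 86.0. Dll4 was 2.69-fold and 1.90-fold higher, which missed the threshold in the haplodeficient library. The Notch targets Hey1 and Hey2 were too low to be eligible, with Hey2 at 30.0 and 24.0 CPM against 2.63 and 1.85. Cells with at least 2 Ehd3 UMIs came close to arterial cells in summed Notch transcripts. Over the 8 Notch genes eligible between the libraries they had 1293 and 1059 CPM, beside 1340 and 1236 in arterial cells.

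Of 12 eligible genes of vascular tone 3 were called higher and 0 lower, and of 10 flow-responsive genes 4 higher and 1, Aqp1, lower. The medians were log2 0.92 and 0.48 for tone and 1.25 and 0.31 for flow, in the control and then the haplodeficient library. Nos3, the endothelial nitric oxide synthase, was at 296 CPM (265 to 329) in control arterial cells against 41.7 in other endothelial cells, and at 207 CPM (184 to 231) against 56.8 in the haplodeficient library. Edn1, which encodes the constrictor endothelin 1, was 2.29-fold and 3.03-fold higher. The shear-induced factor Klf2 was at 1956 and 2038 CPM against 621 and 933, and Klf4 at 1364 and 1503 CPM against 534 and 588. S1pr1, a receptor for sphingosine 1-phosphate that stabilises vessels, was 2.89-fold and 2.41-fold higher. Epas1 (HIF-2 alpha) was at 676 and 590 CPM against 225 and 265, the 1 oxygen-sensing gene of 3 eligible that was called. Genes eligible between the libraries were also summed per list. Tone gave 2477 and 2395 CPM in arterial cells, beside 2128 and 2152 in cells with at least 2 Ehd3 UMIs. Flow gave 5241 and 5173, beside 4389 and 3780 with Ehd3 and 5142 and 4593 with Slc14a1. Oxygen sensing gave 823 and 740, beside 808 and 596 with Ehd3 and 723 and 840 with Slc14a1. Much of these sums was thus shared with those cells.

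The remaining leading genes were mixed in function. Pde3a, a phosphodiesterase that breaks down cyclic nucleotides, was at 300 and 215 CPM against 18.1 and 13.1. Sulf1, which edits heparan sulphate, was 35.4-fold and 12.1-fold higher, and the lymphangiogenic factor Vegfc 6.98-fold and 13.7-fold. Cdh13 (T-cadherin), Nebl, Apba1 and Atp2a3, a calcium pump of the endoplasmic reticulum, lay between log2 2.38 and 2.80 in each library. Il6, listed with the inflammation genes and below the eligibility limit, was at 49.7 and 54.0 CPM against 6.14 and 10.4. Hspa1a, a heat-shock gene that tissue digestion can induce, was 2.96-fold and 3.64-fold higher.

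The 10 lowest genes included several of other kidney capillaries and of tubule. Aqp1, the water channel of the vasa recta, was at 82.3 and 56.0 CPM against 634 and 397. Rgcc, a peritubular capillary gene, was at 26.6 and 43.3 CPM against 135 and 556. Gpihbp1, which anchors lipoprotein lipase on capillaries, was at 11.1 and 33.3 CPM against 84.7 and 188, and Fam167b at 9.43 and 32.7 against 83.1 and 179. Ptn and Hpgd followed the same order. Slc12a3, Aqp2, Frmpd4 and Grip1 made up the rest. Slc12a3 and Aqp2 are defining genes of distal tubule and collecting duct, and in arterial cells they gave 10 and 9 UMIs and 16 and 0 UMIs.

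**Figure D2:**
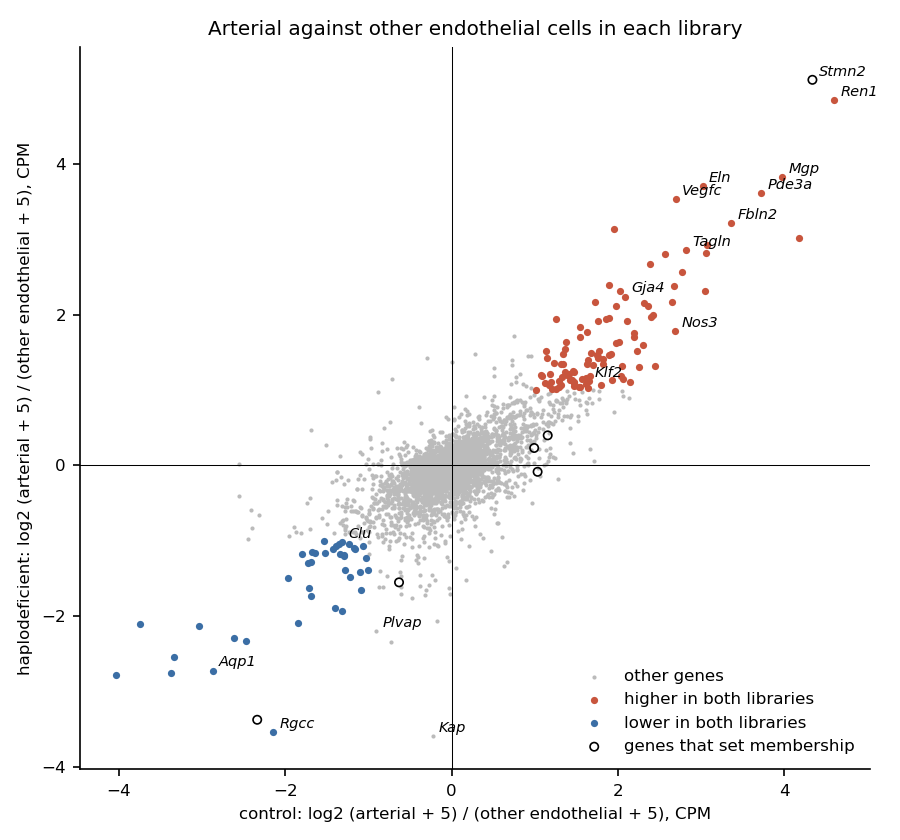
Log2 ratio of arterial to other endothelial cells (5 CPM added) in the control (x axis) and haplodeficient (y axis) library for each eligible gene, with the 101 genes called higher in red, the 39 called lower in blue and genes that set membership as open circles. Mgp lay at 3.97 and 3.82, Nos3 at 2.69 and 1.78, and Kap at -0.23 and -3.59.

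Muscle and renin transcripts were concentrated in few cells. Ren1, which encodes renin, had the highest ratio of any called gene, at log2 4.60 and 4.85, but its UMIs lay in 6 and 5 cells, and 1 cell held 46.5% (control) and 94.1% (haplodeficient) of them. Tagln, a smooth muscle actin-binding protein, was present in 17 and 28 arterial cells and Acta2 in 16 and 35. Without likely doublets and cells over the 1% limit, the log2 ratio of Ren1 was -0.03 (control) and 1.21 (haplodeficient) and was no longer called, while Tagln and Acta2 stayed called. Whether these transcripts came from the arterial cells or from adhering muscle cells was not tested.

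Arterial cells with a Gkn3 UMI carried more Mgp, connexin and elastic matrix transcripts per UMI than those without. Gkn3 is a selection gene, so this split is a description. Of 3717 eligible genes, 74 were called higher in cells with Gkn3 (1.99%) and 63 lower (1.69%), by the 2-fold rule with intervals apart in each library. The arterial identity list had 11 higher and 0 lower of 28 eligible. The 18 control and 22 haplodeficient cells with Gkn3 had fewer UMIs than the others, with medians of 6741.5 and 5142 against 11186 and 7816.

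Mgp was at 6210 CPM in control cells with Gkn3 and 1539 CPM in those without, and at 8064 and 1522 CPM in the haplodeficient library. Vwf, the platelet-binding von Willebrand factor, was at 436 against 36.8 CPM and at 442 against 20.5 CPM. Bgn (biglycan) was at 276 against 29.6 CPM and at 564 against 47.0 CPM. The secreted Cytl1 was at 372 against 20.4 CPM and at 243 against 11.4 CPM, in 8 and 7 of the cells with Gkn3. Per UMI, these genes were concentrated in the smaller group of arterial cells that carried Gkn3.

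Connexins and growth regulators followed. Gja5 was at 117 against 33.7 CPM in the control and at 232 against 44.0 CPM in the haplodeficient library, and Gja4 at 681 against 194 and 680 against 238 CPM. Bmx was at 271 against 62.3 CPM and at 321 against 66.7 CPM, Edn1 at 346 against 111 and 547 against 129 CPM, and Hey2 at 74.4 against 21.5 and 77.4 against 16.7 CPM. Eln was at 553 against 190 CPM and at 2117 against 202 CPM. In the haplodeficient library 1 cell held 36.4% of all arterial Eln UMIs.

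Some capillary, venous and muscle genes were higher in cells without Gkn3, among them 3 of 5 eligible muscle and pericyte genes. These 3 were Rgs5, Myl9 and Ren1, and the Ren1 UMIs lay in few cells, as described above. Acta2 was at 220 CPM without and 0 CPM with Gkn3 in the control. In the haplodeficient library it was at 331 CPM without and 381 CPM with Gkn3. The venous list split, with Nr2f2 and Gas6 higher without Gkn3 and the third eligible gene, Vwf, higher with it. Igfbp5, a peritubular capillary gene, was at 117 CPM without and 5.32 CPM with Gkn3 in the control, and at 158.5 and 11.1 CPM in the haplodeficient library. Nr2f2, the transcription factor of venous identity, was at 108 against 10.6 CPM and at 102 against 38.7 CPM. The endothelin receptor gene Ednrb was at 159 against 58.5 CPM and at 130 against 27.6 CPM. Rgs5, a mural cell gene, was at 175 CPM in control cells without Gkn3 and gave 0 UMIs in those with it, against 102 and 5.53 CPM in the haplodeficient library. Sox17 and Nos3 were not called in this split.

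**Figure D3:**
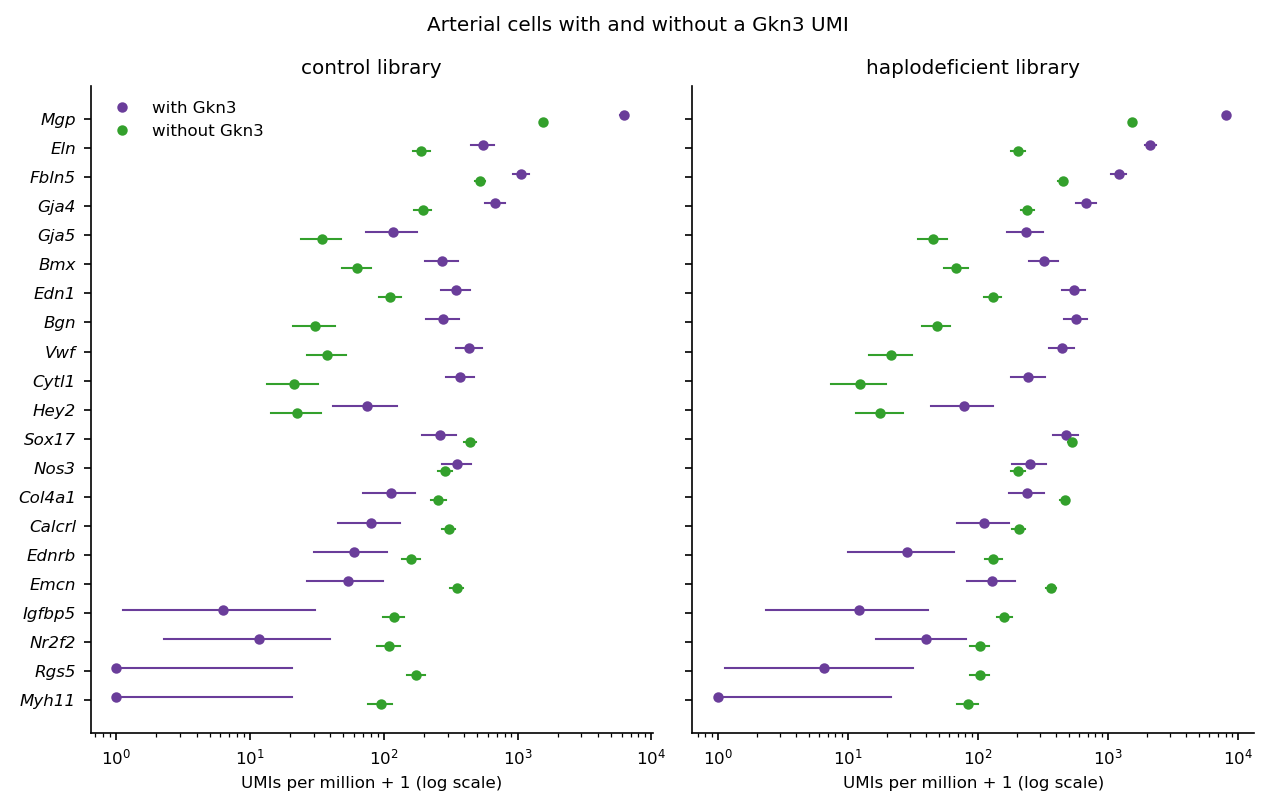
Level (CPM plus 1, log axis) of 21 genes in arterial cells with a Gkn3 UMI (purple) and without (green), with 95% Poisson intervals, in the control (left) and haplodeficient (right) library. Mgp, Bgn, Vwf and Cytl1 were higher with Gkn3, whereas Igfbp5, Nr2f2, Rgs5 and Myh11 were higher without.

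Egln3 (ENSMUSG00000035105, chromosome 12, 54178981 to 54203860, minus strand) was barely detected, with 6 UMIs in control and 13 in haplodeficient arterial cells. This is 5.14 and 8.67 CPM, a ratio of 1.69 (exact conditional interval 0.60 to 5.41), and other endothelial cells had 12.6 and 14.6 CPM. No difference was detectable at this depth, so the gene gave no check of the library labels. The exons removed are not given in the sources used here, and 3′ counts need not report a deletion elsewhere in the gene.

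Arterial cells were 17.6% of control endothelium (exact binomial interval 14.4 to 21.1) and 14.96% of haplodeficient endothelium (12.7 to 17.5). The difference was -2.63 percentage points (Newcombe interval -6.76 to 1.29), which was not detectable at this depth. With at least 5 endothelial UMIs required, the shares were 19.9% and 15.1% and the interval of the difference, -9.57 to -0.36, left out 0. No other setting that changed the cells had such an interval. With selection after thinning each cell to 1000 UMIs, the shares were 10.4% and 8.82%. There the difference was -1.57 points (-4.98 to 1.56). Cells with Gkn3 were 3.44% and 2.47% of endothelial cells.

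HIF targets showed little difference in their median, and single targets went both ways. Hif1a was at 90.0 CPM in control and 93.4 CPM in haplodeficient arterial cells, and Epas1 at 676 and 590 CPM (ratio 0.87, interval 0.79 to 0.96). Of 10 eligible HIF targets 1 was called, and it was lower, where 0.576% of all genes were called higher and 1.76% lower. The median log2 ratio was 0.02, beside 0.00 over all 3817 eligible genes. Of the 10 targets 7 were higher and 3 lower, with log2 ratios from -1.37 to 0.70. By counting error alone, 2 of the 10 had intervals above 1 and 2 below. How many of all genes had such intervals was not computed, so this count is a description. Ndrg1, a hypoxia-induced gene, was the gene called, at 558 CPM in control and 212 CPM in haplodeficient cells (ratio 0.38, interval 0.33 to 0.44). In other endothelial cells its ratio was 0.56. Vegfa stood at 70.3 and 70.7 CPM, and Pgk1 at 95.1 and 96.0 CPM.

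Between the libraries 22 of 3817 genes were called higher in haplodeficient arterial cells (0.576%) and 67 lower (1.76%). The lowest included Kap (log2 -7.37), Miox, Slc34a1, Gpx3, Acsm2, Gatm, Slc5a12, Maf and C3 (log2 -3.04). Most of these belong to proximal tubule, where Slc34a1 reabsorbs phosphate and Miox breaks down inositol. Kap, an androgen-regulated proximal tubule gene, was at 1926 CPM in the control, with UMIs in 68 cells, and at 6.67 CPM in the haplodeficient library, with UMIs in 4 cells. Other endothelial cells had Kap at 2253 and 136 CPM. Of the 67 genes called lower, 44 were also called lower in other endothelial cells, where 2.26% were called lower and 1.43% higher.

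The 10 highest were Spink8 (log2 2.00), Sostdc1, Pigr, Rpl29, Rasl11a, Tagln, Wfdc15b, Pde7b, Wfdc2 and Lcn2 (log2 1.20). Several are epithelial, and few cells carried them. With Gkn3 as the sole selection gene the log2 ratio was -2.92 for Spink8, -1.04 for Pde7b and -1.25 for Lcn2, and with selection after thinning it was -0.19 for Tagln. Spink8 lay in 4 control and 9 haplodeficient arterial cells, Pigr in 10 and 15, and Lcn2, a tubular injury gene, in 16 and 27. Tagln was at 127 CPM in control and 385 CPM in haplodeficient cells, with 22.97% and 40.7% of its UMIs in 1 cell.

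Marker levels of other cell types differed between the libraries too. The 12 tubule markers together stood at 6499 CPM in control and 2817 CPM in haplodeficient arterial cells, with cell medians of 0.0443% and 0% of UMIs and maxima of 7.67% and 2.75%. More than 1% of UMIs came from tubule markers in 11 control and 6 haplodeficient cells, and from any marker list of another cell type in 15 and 9. The 9 muscle and pericyte markers stood at 820 and 1210 CPM, with 2 and 3 cells above 1%, and the 10 leukocyte markers at 22.3 and 133 CPM. Without likely doublets and cells above 1%, the 6 eligible muscle genes summed to 296 and 1028 CPM (ratio 3.47), against 777 and 1161 CPM (ratio 1.49) with all cells. The leukocyte UMIs lay in 16 and 54 cells, with 0.481% of UMIs in the highest haplodeficient cell. The 6 fibroblast markers stood at 66.8 and 15.3 CPM and lay in 4 and 9 cells, so single cells weighed heavily in both lists. Of the 5 podocyte markers, Podxl and Synpo gave nearly all UMIs, while Nphs1 gave 1 UMI in the control and 3 in haplodeficient cells. The part of these cells in the differences of single genes was not tested beyond leaving them out.

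**Figure D4:**
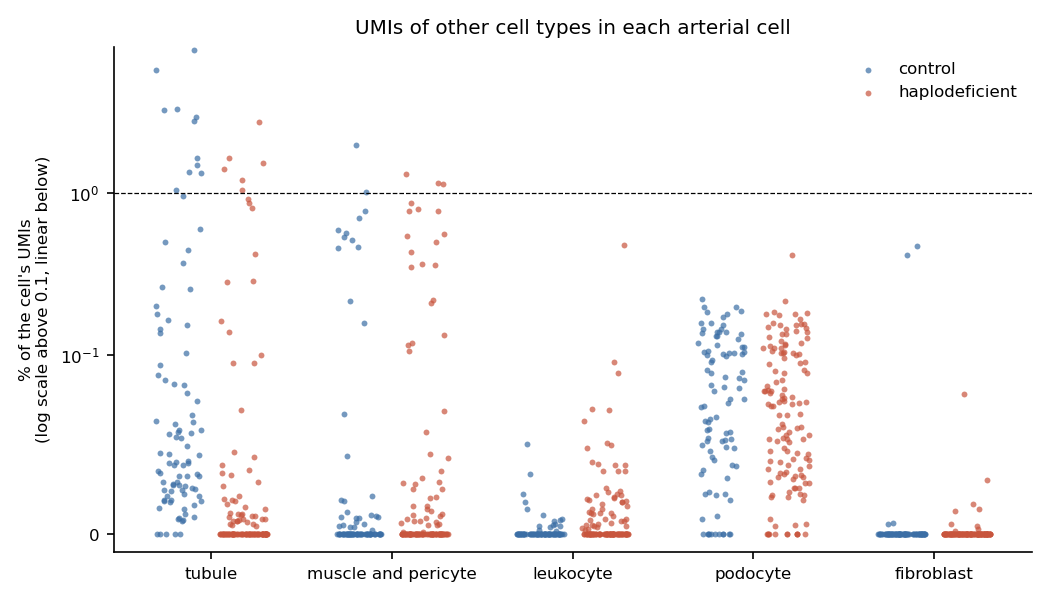
Share of each arterial cell's UMIs (y axis in percent, linear below 0.1 and logarithmic above) from 5 marker lists of other cell types (x axis), by library, with 1 point per cell and a dashed line at 1%. The control cells reached 7.67% for tubule markers and the haplodeficient cells 2.75%.

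Without likely doublets and cells above 1%, 66 control and 114 haplodeficient arterial cells remained. There 26 genes were called higher (0.707%) and 63 lower (1.71%) of 3676, of which 4 and 28 were the same genes as with all cells. The 4 higher genes were Rpl29, Rasl11a, Tagln and Phlda3. Rpl29, a ribosomal protein gene with many processed copies in the genome that could share its reads, was at 139 CPM in control and 515 CPM in haplodeficient cells, a ratio of 3.71. Its ratio in other endothelial cells was 4.15. Rasl11a, a small GTPase gene, was at 26.6 and 90.0 CPM (ratio 3.39, interval 2.28 to 5.18), where other endothelial cells had log2 0.45 against 1.59.

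The 28 lower genes still included Kap and Gpx3 as well as others whose cell of origin was not tested. Of those, chosen after their values were seen, Auts2 was at 122.5 and 43.3 CPM, the growth factor gene Bmp6 at 131 and 62.0 CPM, the adaptor gene Shb at 128 and 60.0 CPM and the calcium channel gene Itpr2 at 129 and 56.7 CPM. Their log2 ratios in other endothelial cells were -1.04, -0.82, -0.84 and -0.56 in that order, beside -1.40, -1.02, -1.03 and -1.12 in arterial cells. The mitochondrial transcripts mt-Nd1, mt-Nd3 and mt-Co3 were also among the 28, beside the lower mitochondrial share of the haplodeficient cells. Gdpd3, likewise singled out after its value was seen, gave 4 UMIs in control and 80 in haplodeficient cells, and had 9.30 and 57.2 CPM in other endothelial cells.

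Of 27 eligible arterial identity genes 0 were called higher and 0 lower between the libraries, where 0.576% and 1.76% of all genes were called, so a list of this size would hold few calls in any case. By counting error alone, 8 identity genes had intervals above 1 and 9 below 1, and the share of all genes with such intervals was not computed. The list's median log2 ratio was 0.01, with 14 genes above 0 and 13 below. Mgp had a ratio of 1.01 (0.96 to 1.06) and Fbln2 1.01 (0.89 to 1.15). Sox17 had a ratio of 1.26 (1.12 to 1.41), Jag1 0.78 (0.67 to 0.91) and Mecom 0.74 (0.69 to 0.80). Cytl1 was at 77.1 and 39.3 CPM and Igfbp3 at 171 and 109 CPM. Eln had a ratio of 1.74 (1.51 to 2.01), and its log2 ratio went from 0.79 to 0.26 when the cell with most Eln UMIs was left out in each library.

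Genes of tone and flow went both ways in haplodeficient arterial cells, none of them by 2-fold except Ass1, which was lower. The 12 eligible tone genes were split into 6 higher and 6 lower, and the 10 flow-responsive genes into 4 and 6. By counting error alone, intervals lay above 1 for 3 tone and 2 flow genes, and below 1 for 3 and 6. No share of all genes with such intervals was computed beside these counts. Nos3, Thbd, Calcrl and Tek, given next, were lower. Nos3 was at 296 CPM in control and 207 CPM in haplodeficient cells (ratio 0.70, interval 0.60 to 0.82). In other endothelial cells its ratio was 1.36, and the ratio between these ratios was 0.51 (0.41 to 0.64). Thbd, the anticoagulant receptor thrombomodulin, was at 203 and 118 CPM (ratio 0.58, interval 0.48 to 0.71), with a ratio of 1.65 in other endothelial cells. Calcrl, the receptor of adrenomedullin, had a ratio of 0.72 (0.61 to 0.84) against 1.60, and the angiopoietin receptor gene Tek 0.74 (0.62 to 0.89) against 1.70.

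Klf2 itself had a ratio of 1.04 (0.99 to 1.10) in arterial cells against 1.502 in other endothelial cells, and Klf4 1.10 in both. The median log2 ratio of the 10 eligible flow-responsive genes was -0.25 in arterial and 0.49 in other endothelial cells. Among the others it was -0.02 in cells with Ehd3, 0.19 in cells with Slc14a1 and 0.71 in the remaining cells. For the 12 genes of vascular tone the arterial median was -0.02. Ass1, an arginine-producing enzyme of proximal tubule as well as endothelium, was at 206 and 63.4 CPM, against 184 and 43.4 CPM in other endothelial cells.

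Interferon-stimulated genes, the targets of interferon signalling, were close between the libraries in arterial cells. Of 24 eligible genes 16 were higher and 8 lower in the haplodeficient library, and the median log2 ratio was 0.06. A call was made for 1, where 0.576% of all genes were called higher and 1.76% lower. By counting error alone, 7 of the 24 had intervals above 1 and 3 below, without a share of all genes computed beside it. Over the same 24 genes other endothelial cells had a median of 0.77, with 24 higher. For 16 of the 24 the ratio in arterial cells was below that in other endothelial cells by more than counting error, and for 0 above. The share over all genes was not computed for this, and of 27 arterial identity genes 8 were below and 7 above. Within the other cells the median was 1.06 in the remaining cells, 0.38 in cells with Ehd3 and 0.16 in cells with Slc14a1. Arterial cells were nearest to the Slc14a1 cells in this median and farthest from the remaining cells. With the reduced set of cells the medians were 0.07 in arterial and 0.66 in other endothelial cells.

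Single interferon genes differed in direction. Bst2, which tethers budding virions, was at 193 CPM in control and 399 CPM in haplodeficient arterial cells (ratio 2.07, interval 1.77 to 2.43), and was the gene called. Without likely doublets and cells over the 1% limit its log2 ratio was 0.89 instead of 1.03, and the call was lost. Ifitm3 was at 1560 and 2525 CPM (ratio 1.62, interval 1.53 to 1.71), and Irf7 at 78.0 and 129 CPM. Isg15 was at 281 and 297 CPM (ratio 1.06, interval 0.92 to 1.22), and Rsad2 at 152 and 152 CPM. The GTPase gene Iigp1 was lower, at 602 and 372 CPM (ratio 0.62, interval 0.55 to 0.69), where other endothelial cells had 1.51. Irf1 was at 500 and 347 CPM and Sp100 at 136 and 93.4 CPM. The chemokine gene Cxcl10 was at 68.6 and 50.01 CPM (ratio 0.73, interval 0.53 to 1.01), against 2.53 in other endothelial cells.

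Antigen presentation followed the same order. Of 11 eligible genes 8 were higher and 3 lower in haplodeficient arterial cells, with a median log2 ratio of 0.16, against 11 higher and a median of 0.72 in other endothelial cells. With all cells that median was 0.18 in cells with Slc14a1, close to arterial cells, 0.42 in cells with Ehd3 and 1.01 in the remaining cells. With the reduced set of cells it was 0.31 in arterial cells, between 0.15 with Slc14a1 and 0.49 with Ehd3, and 1.03 in the remaining cells. The class I gene H2-K1 was at 1188.5 and 1488 CPM (ratio 1.25, interval 1.17 to 1.34), and its partner B2m at 1111 and 1144 CPM. The immunoproteasome gene Psmb8 had a ratio of 1.48 (1.27 to 1.73). The class II chaperone gene Cd74 had a ratio of 0.62 (0.51 to 0.75), with 44.0% of its control UMIs in 1 cell.

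**Figure D5:**
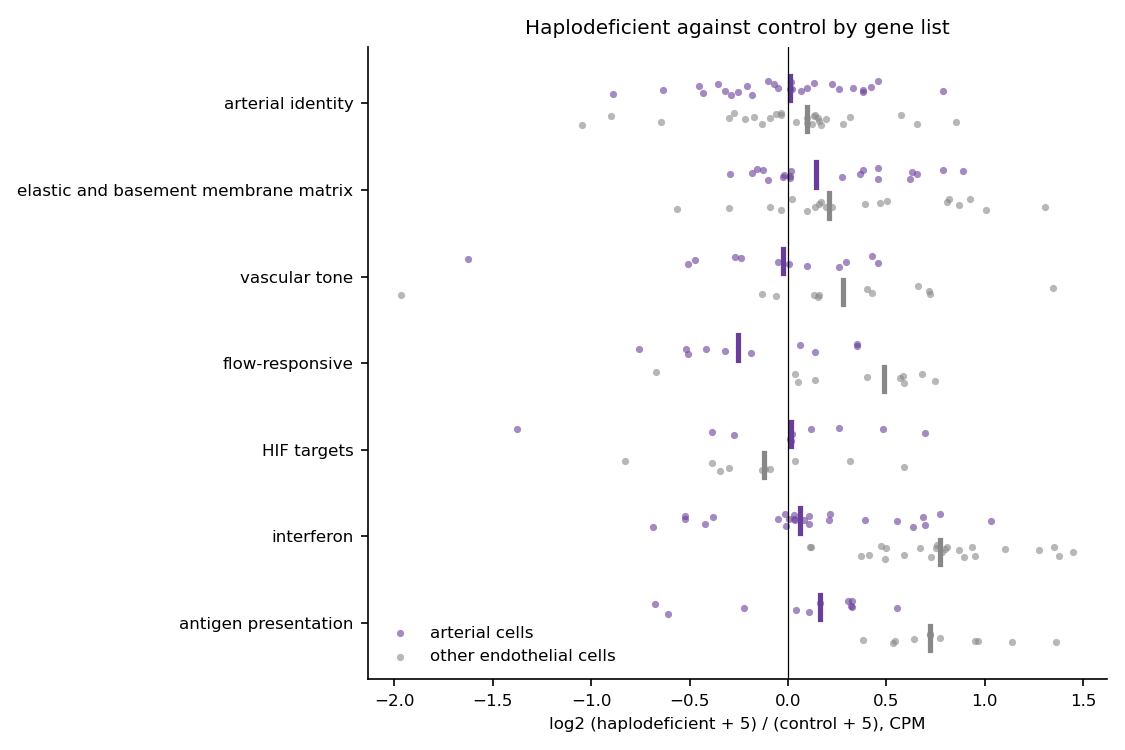
Log2 ratio of haplodeficient to control (5 CPM added, x axis) for each eligible gene of 7 lists, in arterial cells (purple) and in other endothelial cells (grey), with list medians as bars. Interferon genes had medians of 0.06 in arterial and 0.77 in other endothelial cells, and flow-responsive genes -0.25 and 0.49.

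Matrix genes differed by gene. Of 20 eligible matrix genes 13 were higher and 7 lower, and the median log2 ratio was 0.14. Calls numbered 0, where 0.576% of all genes were called higher and 1.76% lower. By counting error alone, 10 of the genes had intervals above 1 and 1 below. The share of all genes with such intervals was not computed, so nothing is read from this count. The basement membrane collagens Col4a1 and Col4a2 had ratios of 1.87 (1.62 to 2.17) and 1.60 (1.31 to 1.94), beside 1.91 and 2.03 in other endothelial cells. Fn1 had a ratio of 1.58 (1.24 to 2.02) against 0.59. Of 9 eligible genes listed for mesenchymal transition 1, Tagln, was called, and the vimentin gene Vim stood at 2503 and 2621 CPM.

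Adhesion and inflammation genes had a median log2 ratio of 0.05 over 13 genes. Calls numbered 0, where 0.576% of all genes were called higher and 1.76% lower, so few calls would be held in any case. By counting error alone, 2 of the genes had intervals above 1 and 1 below, and the share of all genes with such intervals was not computed. Icam1 was at 168 and 175 CPM and Vcam1 at 292 and 339 CPM, while the neutrophil chemokine gene Cxcl2 was at 54.0 and 106 CPM (ratio 1.964, interval 1.46 to 2.67). Immediate early genes had a median of 0.09 over 16 genes. Fos had a ratio of 1.31 (1.26 to 1.37) and Jun 1.44 (1.377 to 1.498), and Zfp36 0.71 (0.66 to 0.77). The digestion of tissue into cells is known to switch such genes on.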

How the data were processed

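The deposited values were raw counts of UMIs per gene and barcode, unfiltered and not normalised, made by the authors with Cell Ranger 4 per the file headers. The build was mm10 per the submitters' processing notes. The annotation and read filters are not given in the sources used here. Cell hashing is mentioned in the labels' protocols, and all features analysed were genes.

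Cells were selected as described above, and their counts were summed per library. CPM, exact Poisson, Clopper-Pearson, Newcombe and exact conditional intervals were computed with scipy 1.17.1 and numpy 2.4.6, and doublets scored with Scrublet in scanpy 1.11.5 at 0.8% per 1000 cells. Ratios of ratios have Wald intervals. No test was possible with 1 library per group, so no p-value is given. The call was tested on simulated counts, and 20 other settings were tried. Gene coordinates came from GENCODE M21, which matched 32158 of 32285 identifiers. Named genes were the 15 highest and 10 lowest called for arterial cells, the 10 called each way between libraries, and members of fixed lists. Members and lists were chosen with earlier results of these data known. Some genes that this rule or these lists hold are not reported here.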

Additional observations from a re-analysis of the deposited data

How the results depend on the processing

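No paired analysis was possible because there was 1 library per group. Each comparison was repeated under 20 other settings, 2 of them chosen after seeing the data (doublets left out together with cells over the 1% limit, and the top cell of each gene left out). Of the values that answer a comparison, 198 stayed the same and 38 moved. Of the values of named genes and further list medians, 1457 stayed the same, 422 moved and 11 turned sign. The cause was not tested.

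Genes called higher and lower in arterial against other endothelial cells (101 and 39) numbered 185 and 199 with Gkn3 alone as selection gene, 176 and 139 with selection after thinning, 170 and 88 with eligibility from 20 CPM, 60 and 19 from 100 CPM, and 152 and 180 without doublets and cells over the limit. Only the lower count moved without doublets (123), without cells over the limit (93), with 20 CPM added (23), with free RNA subtracted (63), against the remaining cells alone (66) and without each gene's top cell (62).

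Genes called between libraries (22 and 67) numbered 39 and 104 with Gkn3 alone, 52 and 126 after thinning, 10 and 42 without cells over the limit, 49 and 159 from 20 CPM, and 11 and 32 from 100 CPM. The higher count was 12 with each cell counted alike and 44 with free RNA subtracted, and the lower count 110 without doublets and 33 with at least 5 endothelial UMIs.

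The antigen presentation median was 0.40 without doublets, 0.41 with Gkn3 alone, 0.34 after thinning and 0.36 with cells with and without Gkn3 weighted alike. Vascular tone was 0.42 with Gkn3 alone, and arterial identity 0.24 after thinning. Subtracting free RNA gave -0.069 for matrix and -0.15 for interferon. Its share, a rough estimate from tubule markers, was 26.3% in control and 10.3% in haplodeficient arterial cells. In other endothelial cells it was 24.4% and 39.8%, and in those with Slc14a1 27.4% and 75.3%.

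Signs turned for Ren1, arterial over other, at log2 -1.08 (haplodeficient, at least 2 selection UMIs), -1.42 (haplodeficient, thinning) and -0.029 (control, without doublets and cells over the limit). With Gkn3 alone they turned for Ren1 (-2.77 and -3.04), Tagln (-1.30) and Acta2 (-3.39, both control), and between libraries for Spink8 (-2.92), Pde7b (-1.04) and Lcn2 (-1.25). Tagln between libraries was -0.19 after thinning. Egln3 gave no ratio with Gkn3 alone, as the control had 0 UMIs.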
